A study of Homo sapiens with 27 samples.

Results

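GATA2 was knocked down in ARCaPM-DR, a chemotherapy-resistant cell line of human castration-resistant prostate cancer, and the transcriptome was measured by RNA sequencing. The comparison took 9 of the study's 27 libraries: 3 with the short hairpin shGATA2a, 3 with a second hairpin, shGATA2b, and 3 with a control hairpin, here called Control. All 9 carried a hairpin, and the comparison was made within replicate number. The labels do not say whether the cells were clones or pools, or how long after hairpin expression the RNA was taken. Nor do they say whether the replicates were separate cultures, and the p-values cover only the spread between these libraries, which may be technical. The other 18 libraries come from the chemotherapy-resistant lines DU145-DR and 22Rv1-DR with the same 3 hairpins and were used only to ask whether the response in ARCaPM-DR differed from theirs.

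GATA2 is a zinc finger transcription factor that binds DNA at the letters GATA preceded by A or T and followed by A or G. It is best known as a regulator of blood stem cells and endothelium. In prostate cells it works with FOXA1 at luminal genes, and it is also studied in prostate cancers that no longer depend on androgen. A short hairpin RNA is processed into a small interfering RNA that directs cleavage of a matching messenger RNA. A hairpin can also silence messages other than its target, and the study used a pair of them.

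Values are normalised reads: the read count of a gene in a library divided by 1 scaling factor for that library. They are not divided by gene length, so levels are compared between libraries and not between genes. The 9 libraries held between 3435702 and 19396302 recovered reads, with a median of 10749656, and shGATA2a replicate 3 was the shallowest. Of 23228 gene symbols, 13079 had at least 10 normalised reads in at least 3 of the 9 libraries and were tested. Log2 fold changes are knockdown minus Control on the scale of log2(value + 1), fitted with limma with the replicate number as a block, and "rose" and "fell" mean a Benjamini-Hochberg adjusted p under 0.05 over all genes tested. Replicate 2 stood apart in all 3 groups: deviations from the group means of the replicate 2 libraries correlated at 0.69 to 0.74. Without replicate 2, 5529 genes passed the threshold for the knockdown, beside 5885 with it. Leaving out replicate 1 gave 3788. Counts without the block are given beside the main ones, since the block moved them most.

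ARCaPM-DR carried part of a mesenchymal profile. VIM, the mesenchymal intermediate filament, stood at 37328 ± 5945 in knockdown libraries and 47215 ± 7786 in Control (SD, n = 6 and 3), and ZEB1, a repressor of epithelial genes, at 1809 ± 266 and 1694 ± 75.3. The mesenchymal genes CDH2, SNAI2 and TWIST1 stayed under 10 in all 9 libraries. The epithelial keratin genes KRT8 and KRT18 were expressed, with Control means of 5834 and 5415, whereas CDH1, the epithelial cadherin, stood at 45.7 ± 9.22 in knockdown libraries and 32.1 ± 7.76 in Control. The androgen-regulated genes KLK2 and TMPRSS2 were under 10 in all 9 libraries, and KLK3 was listed at 0. Of 8 epithelial markers tested 5 fell and 1 rose (1 and 1 without the block), beside 22.6% falling and 22.4% rising among all genes tested. KRT8, KRT19 and CLDN4 fell by 0.74, 1.41 and 0.86 on the log2 scale, and EPCAM rose by 0.99. Of 6 mesenchymal markers tested 2 rose and 2 fell, and VIM fell by 0.34 (limma adjusted p = 0.0032, and 0.16 without the block). Markers of both kinds were thus present, and the line is called here by its name.

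Markers of other cell types were read as well. Of 8 endothelial markers, PECAM1 and KDR were listed at 0 and 6 stayed under 10. The other two were EMCN, a sialomucin gene, which rose (275 against 132, adjusted p = 1.2e-05), and ROBO4, a guidance receptor gene, which fell (26.9 against 81.9, adjusted p = 2.2e-04, and 0.14 without the block). Of 7 blood markers CD3E was listed at 0 and 6 stayed under 10, and of 8 fibroblast markers PDGFRB and FAP were listed at 0 in all 9 libraries. The summed level of the fibroblast list ranged from 5691 to 14936 in knockdown libraries and from 2368 to 4777 in Control, nearly all of it from the collagen genes COL3A1 and COL1A1. The summed level of the blood list ranged from 178 to 715 in knockdown libraries and from 832 to 1339 in Control, nearly all of it CD68, a lysosomal gene of macrophages that other cells also express. The neuroendocrine list summed to 1399 to 1648 in knockdown libraries and 1609 to 2459 in Control, with CHGA and NCAM1 under 10 in all 9 libraries. The basal list summed to 23.8 to 84.6 in knockdown libraries and 41.6 to 111 in Control, with 2 of its 4 genes at 0. In bulk RNA, more cells of a type and more RNA per cell cannot be told apart.

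GATA2 itself fell with both hairpins. It stood at 26.4, 30.9 and 46.6 with shGATA2a and 17.3, 20.1 and 21.8 with shGATA2b, against 173, 153 and 145 in Control. Every knockdown library was far below every Control library (log2 fold change -2.56, SE 0.20, limma adjusted p = 2.0e-08, and 8.8e-05 without the block). An exact two-sided permutation test of the 6 knockdown against the 3 Control libraries gave p = 0.0119, the smallest that 84 splits allow. The level was lower with shGATA2b than with shGATA2a, by a log2 difference of -0.75 (adjusted p = 0.046), but that call was lost without the block (adjusted p = 0.26). All 9 of its values were whole reads.

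Of 10 GATA factors and FOG cofactors 5 were tested, and GATA2 and GATA6 fell. GATA6, a GATA factor of endoderm and heart, stood at 66.7, 39.8 and 77.7 with shGATA2a and 28.9, 23.8 and 49.7 with shGATA2b, against 103, 52.6 and 85.1 in Control (log2 fold change -0.80, adjusted p = 0.0029). Its groups overlapped, and its call was lost without the block (adjusted p = 0.11) and without Control replicate 1. GATA3, a luminal epithelial GATA factor, did not pass the threshold (22.7 against 22.2, adjusted p = 0.88).

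The whole response was broad. Of the 13079 genes tested, 5885 passed the threshold (45.0%), 2925 of them higher with knockdown (22.4%) and 2960 lower (22.6%), and the median log2 fold change of all genes was -0.004. Most changes were small: 790 genes (6.04%) passed and also changed at least 2-fold, 488 up (3.73%) and 302 down (2.31%). Without the replicate block 2418 genes passed (18.5%), 1290 up (9.86%) and 1128 down (8.62%). In 2746 genes (21.0%), the 6 knockdown libraries lay wholly on 1 side of the 3 Control libraries. Each hairpin alone gave 5223 calls with shGATA2a (39.9%), 20.3% of genes up and 19.7% down, and 5278 with shGATA2b (40.4%), 19.7% up and 20.7% down. These comparisons share the Control libraries. Without replicate 1 they gave 2889 and 3336 calls, and without shGATA2a replicate 1 the first gave 3469.

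**Figure D1:**
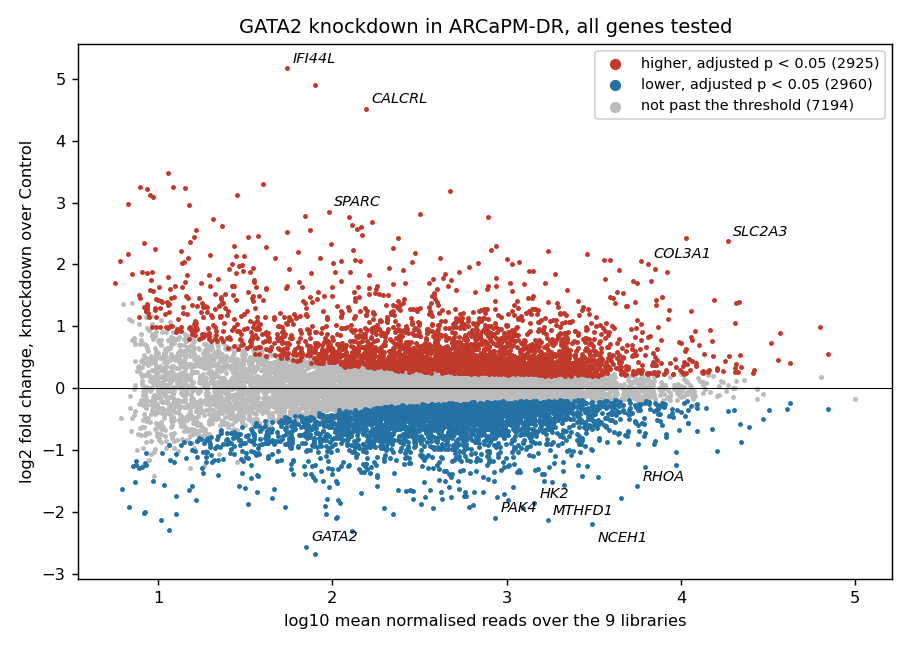
Log2 fold change, knockdown over Control, of each of the 13079 genes tested in ARCaPM-DR against its mean level over the 9 libraries (log10 normalised reads). Red points are the 2925 genes higher and blue points the 2960 genes lower at an adjusted p under 0.05; most lie within 1 log2 unit of 0, and IFI44L and CALCRL stand highest among the labelled genes.

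The genes that rose most, among those with a mean of at least 50 normalised reads and no overlap between groups, were led by genes near silence in Control. IFI44L, an interferon-induced gene, stood at 116, 30.9 and 167 with shGATA2a and 60.1, 27.6 and 90.1 with shGATA2b, against 0, 0 and 5.76 in Control, so that Control rested on 9 reads in all. Its pooled level was 26.8 times that of Control, with an exact 95% counting interval of 14.0 to 59.2, and its fitted log2 fold change of 5.17 depends on the pseudocount (adjusted p = 2.2e-09). EFHA2, a gene of a mitochondrial protein with EF-hand calcium-binding motifs, stood at 159.7, 165 and 42.8 with shGATA2a and 78.5, 186 and 77.7 with shGATA2b, against 3.97, 4.38 and 0.640 in Control. Its pooled ratio was 48.8 (counting interval 25.5 to 107). For both genes all 6 knockdown libraries were above all 3 Control libraries.

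CALCRL, the G protein-coupled receptor that pairs with RAMP proteins to bind adrenomedullin or CGRP, stood at 306, 162 and 303 with shGATA2a and 204, 163 and 238 with shGATA2b, against 9.25, 7.01 and 10.2 in Control. The groups were far apart (log2 fold change 4.52, SE 0.16, adjusted p = 2.0e-12). On the calcitonin family list of 10 genes, 4 of 5 genes tested rose and none fell (3 rose without the block). CALCRL and CALCR met the filter of 10 normalised reads in 3 libraries only through knockdown libraries. The count of rising genes was therefore partly fixed by the filter. ADM, which encodes the ligand adrenomedullin, stood at 1353, 2032 and 1007 with shGATA2a and 2759.6, 3612 and 2229.5 with shGATA2b, against 797, 1573 and 877 in Control (log2 fold change 0.94, adjusted p = 5.1e-07). The ADM groups overlapped, since shGATA2a replicates 1 and 3 lay below Control replicate 2. CALCR, the calcitonin receptor gene, was low and higher with knockdown (27.5 against 8.35, adjusted p = 3.6e-04).

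SPARC, a secreted matricellular glycoprotein, stood at 94.3, 139 and 46.6 with shGATA2a and 185, 251 and 93.2 with shGATA2b, against 10.6, 28.0 and 12.2 in Control. Its level was highest in replicate 2 of each group, and no knockdown library reached down to Control (log2 fold change 2.85, adjusted p = 4.9e-09). CLIP4, a member of the microtubule plus-end linker family, stood at 538, 215 and 913 with shGATA2a and 774, 411 and 1157 with shGATA2b, against 79.3, 24.5 and 127 in Control. TMEM27, the membrane glycoprotein collectrin, stood at 1252, 360.3 and 1659.6 with shGATA2a and 1279.9, 538 and 1479.8 with shGATA2b, against 218, 51.7 and 237 in Control. Replicate 2 was the lowest of each group for both genes, and every knockdown library exceeded every Control library. The same order, with replicate 2 lowest in all 3 groups, held for 9 of the 15 genes that rose most, and replicate 2 was highest in all 3 groups for 3 of them.

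Of the rest of the 15, HTR2B, a serotonin receptor gene, averaged 97.4 ± 53.1 with knockdown and 14.0 ± 10.8 in Control (SD, n = 6 and 3; log2 fold change 2.78). CCRL1, an atypical chemokine receptor gene, averaged 180.5 ± 76.8 and 25.9 ± 3.06 in the same order (log2 fold change 2.64). LRRTM4 and LRRN3 encode leucine-rich repeat membrane proteins of neurons. LRRTM4 averaged 234 ± 75.2 with knockdown and 34.9 ± 10.8 in Control, and LRRN3 174 ± 83.3 and 26.7 ± 16.7. The remaining genes were GBP1, an interferon-inducible GTPase, NEB, which encodes the muscle filament protein nebulin, the growth factor IGF1, the scramblase PLSCR4 and TC2N, a C2 domain protein, with log2 fold changes of 2.61, 2.57, 2.55, 2.52 and 2.47. All 15 passed without the block as well, at adjusted p up to 0.016.

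The 15 genes that fell most were led by GATA2. NCEH1, an enzyme that hydrolyses cholesteryl esters, stood at 1747, 1463 and 2449 with shGATA2a and 975, 936 and 1206 with shGATA2b, against 7070.3, 5499.5 and 6455 in Control. All 6 knockdown libraries were below Control (log2 fold change -2.19, SE 0.10, adjusted p = 1.6e-11). MTHFD1, the cytosolic enzyme that interconverts folate one-carbon units, stood at 604, 732 and 812 with shGATA2a and 822, 934 and 963 with shGATA2b, against 3735, 3539.6 and 3296 in Control (log2 fold change -2.13, adjusted p = 1.6e-11). The gap between the groups was more than the whole range within either.

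PAK4, a p21-activated kinase that acts downstream of CDC42, stood at 346, 469 and 292 with shGATA2a and 459.7, 485 and 424 with shGATA2b, against 1782, 1527 and 1928 in Control (log2 fold change -2.10, adjusted p = 4.1e-10). PARK7, which encodes the redox-sensing protein DJ-1, stood at 571, 712 and 665 with shGATA2a and 501, 698 and 678 with shGATA2b, against 2602, 2336 and 2358 in Control (log2 fold change -1.94, adjusted p = 9.7e-11). For both genes the values of the 2 hairpins overlapped each other and lay below every Control value. CCL5, a T cell-attracting chemokine, stood at 179.8, 104 and 152 with shGATA2a and 98.2, 48.9 and 76.6 with shGATA2b, against 587, 239 and 512 in Control and was lowest in replicate 2 of every group (log2 fold change -2.04). DUT, the dUTPase that keeps uracil out of DNA, averaged 198 ± 59.0 with knockdown and 733 ± 131 in Control (SD, n = 6 and 3; log2 fold change -1.94).

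ABCG1, a cholesterol export pump gene, stood at 39.0, 62.7 and 38.9 with shGATA2a and 24.3, 11.3 and 7.25 with shGATA2b, against 88.6, 139 and 67.8 in Control. Every shGATA2b value was below every shGATA2a value, and all 6 lay below Control (log2 fold change -1.92, adjusted p = 1.6e-05). The others of the 15 were ZNF25, a zinc finger gene, MICALCL, THYN1, CYS1, which encodes a protein of the cilium, LOC100126784, the kinase STK40 and the ribokinase RBKS, with log2 fold changes between -2.31 and -1.91. All 15 passed without the block, at adjusted p up to 0.0068.

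**Figure D2:**
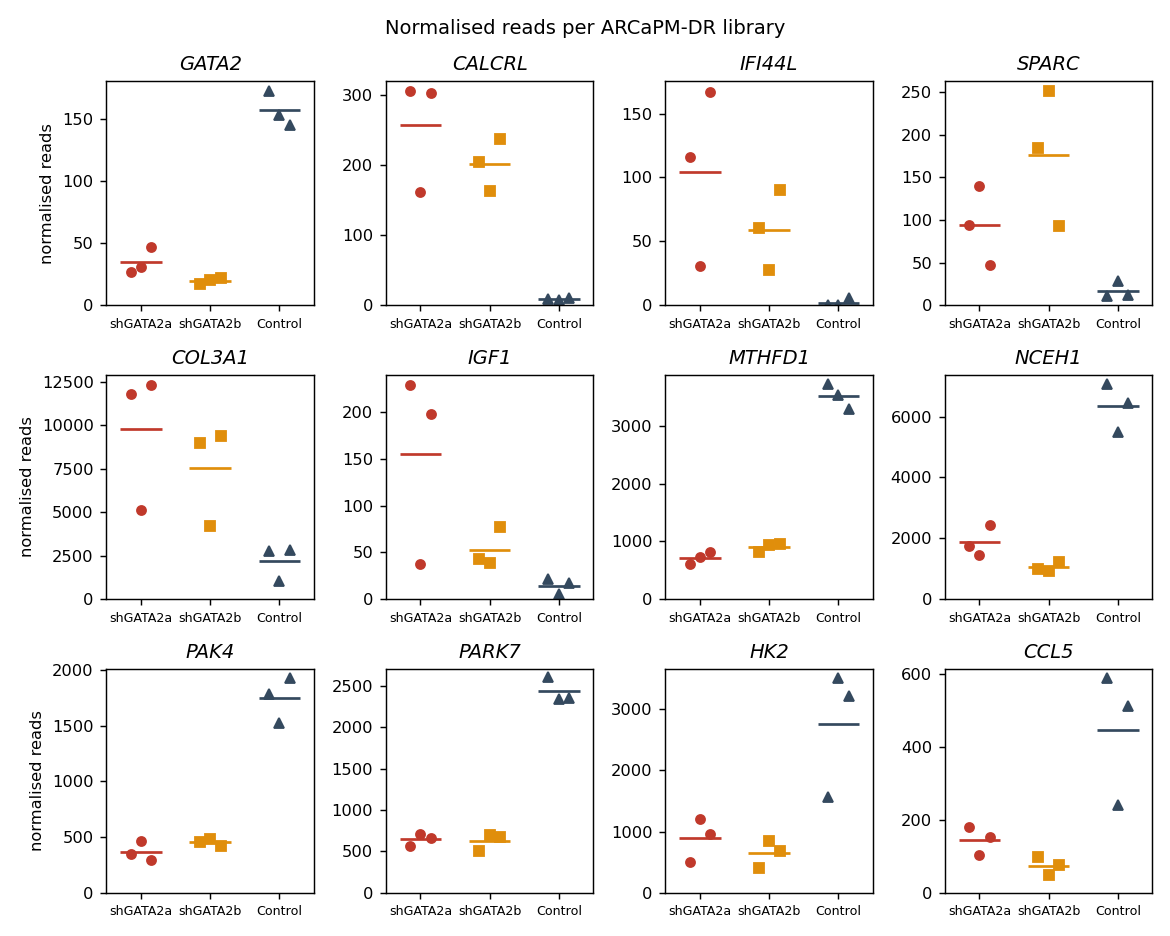
Normalised reads of 12 genes in each ARCaPM-DR library, with shGATA2a (circles), shGATA2b (squares) and Control (triangles) from left to right and the group mean as a line; each panel starts at 0 on its own scale. The 6 knockdown libraries lie on 1 side of the 3 Control libraries in all 12 panels. For the genes named as rising or falling most, that was a condition of naming them.

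The upstream sequences of genes that moved most are shown because GATA2 binds DNA by sequence, and they let the letters it could bind be seen beside the size of the change. RefSeq promoter sequences (GRCh38.p14), cut to the 250 bases before the start of the gene, were found by identical symbol for 10 of the 15 genes that rose most and 10 of the 15 that fell most. Each was searched on both strands for the word AGATAA, the word AGATAG, the word TGATAA and the word TGATAG. A word was present in 4 of the 10 that rose, in 1 of the 10 that fell, and in 22.9% of all 27305 promoters of the table. Capitals mark the word found on either strand, and each sequence runs 5′ to 3′ toward the gene. IFI44L lies on the plus strand at chr1:78620198-78620447, NEB on the minus strand at chr2:151734477-151734726, SPARC on the minus strand at chr5:151686916-151687165, PLSCR4 on the minus strand at chr3:146251106-146251355 and DUT on the plus strand at chr15:48330845-48331094.
IFI44L: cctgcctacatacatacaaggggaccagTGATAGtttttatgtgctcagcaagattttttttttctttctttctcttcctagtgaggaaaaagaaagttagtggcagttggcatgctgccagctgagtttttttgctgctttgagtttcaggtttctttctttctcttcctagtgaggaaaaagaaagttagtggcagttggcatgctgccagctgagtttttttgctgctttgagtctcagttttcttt
NEB: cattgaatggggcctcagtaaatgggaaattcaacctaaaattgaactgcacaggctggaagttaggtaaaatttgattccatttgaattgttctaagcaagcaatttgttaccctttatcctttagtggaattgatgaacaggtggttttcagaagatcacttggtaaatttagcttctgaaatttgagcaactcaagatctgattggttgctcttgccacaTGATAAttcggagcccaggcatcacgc
SPARC: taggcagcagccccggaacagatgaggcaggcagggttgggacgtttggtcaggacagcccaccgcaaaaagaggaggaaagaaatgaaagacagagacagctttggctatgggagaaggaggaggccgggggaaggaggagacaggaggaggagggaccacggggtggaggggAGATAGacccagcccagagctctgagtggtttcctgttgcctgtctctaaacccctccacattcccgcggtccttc
PLSCR4: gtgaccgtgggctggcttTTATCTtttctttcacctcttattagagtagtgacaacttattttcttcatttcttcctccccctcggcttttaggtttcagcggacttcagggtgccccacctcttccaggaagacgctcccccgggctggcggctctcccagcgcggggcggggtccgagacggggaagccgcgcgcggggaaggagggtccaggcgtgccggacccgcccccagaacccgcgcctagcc
DUT: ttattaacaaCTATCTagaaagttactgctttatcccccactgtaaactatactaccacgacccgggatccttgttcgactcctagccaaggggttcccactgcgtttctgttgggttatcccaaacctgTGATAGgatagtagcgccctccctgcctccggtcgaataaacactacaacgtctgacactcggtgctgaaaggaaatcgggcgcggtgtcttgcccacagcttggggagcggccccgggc
The word began 222 bases before the start in IFI44L, 27 in NEB, 76 in SPARC and 232 in PLSCR4. DUT held 2 words, at 240 and 120 bases before its start. A match is a description of the letters, and binding of GATA2 was not measured here.

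Gene lists of known processes are described next by how many of their tested members rose and fell, to be read against 22.4% rising and 22.6% falling among all genes tested. No list was tested as a set. A gene under 10 normalised reads throughout 1 group could meet the filter through the other group alone, which fixes its direction. Such genes were not counted per list. Under quantile normalisation and median of ratios scaling, every list described here kept the same side with more calls, except the mitochondrial ribosomal list, whose numbers were equal. Counts without the block are in brackets, with those without replicate 1 or 2 where they moved the number of calls by more than 1.5 times.

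Glycolysis and hypoxia genes were mostly lower. Of 38 tested, 22 fell and 6 rose (12 and 2 without the block), with a median log2 fold change of -0.36. HK2, the hexokinase that starts glycolysis, stood at 497, 1199 and 964 with shGATA2a and 403, 849 and 679 with shGATA2b, against 1571, 3503 and 3208 in Control (log2 fold change -1.86, adjusted p = 1.9e-11). PDK1, a kinase that inhibits pyruvate dehydrogenase, stood at 306, 378 and 536 with shGATA2a and 286, 416 and 480.5 with shGATA2b, against 727, 1037 and 1381 in Control (log2 fold change -1.37). The groups of both genes did not overlap, although the HK2 levels in replicate 1 were well below those in the other replicates of each group.

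NDRG1, a hypoxia-responsive gene, fell as well (307 against 820.3, log2 fold change -1.43). The glycolytic enzyme genes PFKL, GPI and ALDOA fell by 0.91, 0.70 and 0.86 on the log2 scale. SLC2A3, the high-affinity glucose transporter GLUT3, went the other way and stood at 26399.5, 36733 and 16324 with shGATA2a and 23584, 32659.9 and 16407 with shGATA2b, against 3542, 8038 and 3584 in Control (log2 fold change 2.37, adjusted p = 1.9e-11). SLC2A1, the transporter GLUT1, fell (731 against 1208, log2 fold change -0.75).

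Nucleotide, folate and cell cycle genes were also more often lower. In folate and one-carbon metabolism 10 of 23 fell and 4 rose (5 and 1 without the block), and in purine and pyrimidine synthesis 9 of 25 fell and 1 rose (4 and 0 without the block, 4 and 0 without replicate 1). PRPS2, which makes the ribose phosphate donor of nucleotide synthesis, averaged 558 ± 153 with knockdown and 1422 ± 351 in Control (SD, n = 6 and 3; log2 fold change -1.36). TYMS, the thymidylate synthase, fell by 0.64 on the log2 scale. Of 45 mitosis genes 19 fell and 5 rose (11 and 1 without the block, 10 and 2 without replicate 1). MAD2L1, a spindle checkpoint gene, stood at 299, 252 and 466 with shGATA2a and 228, 241 and 342 with shGATA2b, against 898, 596 and 858 in Control (log2 fold change -1.38). CENPF, a kinetochore gene, averaged 2327 ± 682 with knockdown and 4506 ± 684 in Control.

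With shGATA2a alone 10 of the 45 fell and 12 rose, and with shGATA2b alone 25 fell and 1 rose, with median log2 fold changes of 0.05 and -0.32. Tested directly, 30 of the 45 were lower with shGATA2b than with shGATA2a and none higher, beside 7.73% of all genes lower and 4.73% higher, but without the block 1 was lower. Of 44 DNA replication genes 15 fell and 3 rose (7 and 1 without the block, 7 and 3 without replicate 1), and by hairpin 15 fell and 3 rose with shGATA2a, and 13 fell and 3 rose with shGATA2b. PCNA, the sliding clamp of DNA polymerase, averaged 373 ± 47.7 with knockdown and 722 ± 197 in Control (log2 fold change -0.93). FOXM1, a driver of mitotic gene expression, stood at 1038, 1207 and 785 with shGATA2a and 929.9, 1360.4 and 678 with shGATA2b, against 1656, 1895 and 1204 in Control. Its groups overlapped, its call was lost without the block (adjusted p = 0.068 against 7.1e-06 with it), and 2 of its values were not whole reads.

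Inflammatory and immediate early genes fell more often than they rose. Of 14 cytokine and chemokine genes tested, 8 fell and 3 rose (4 and 2 without the block, 5 and 1 without replicate 1, 5 and 2 without replicate 2). By hairpin, 6 fell and 4 rose with shGATA2a, and 8 fell and 1 rose with shGATA2b. The median log2 fold changes were -0.10 and -0.80. The blood marker sum given above was lower with knockdown as well, while CD3E was at 0 and PTPRC under 10 in all 9 libraries. Beside CCL5, the granulocyte growth factor CSF3 averaged 144 ± 99.8 with knockdown and 426 ± 287 in Control. Its call was lost without the block (adjusted p = 0.077). The cytokine IL32 fell (333 against 656, log2 fold change -0.99), whereas IL18, an inflammasome cytokine, rose (320.4 against 163, log2 fold change 0.95). In the NF-kB list 11 of 23 fell and 3 rose (6 and 1 without the block). NFKBIA, the inhibitor that NF-kB itself induces, stood at 1913, 1983 and 1695 with shGATA2a and 1353, 1423 and 1293 with shGATA2b, against 3179.5, 3514 and 2274 in Control (log2 fold change -0.89).

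Of 33 AP-1, EGR and ERK feedback genes 18 fell and 5 rose (6 and 1 without the block), with a median log2 fold change of -0.30. ETV4, an ETS factor induced by ERK, fell (499 against 969.5, log2 fold change -1.05), and so did the AP-1 subunit genes FOSB (-1.18) and FOSL1 (-0.70). SPRY1, a feedback inhibitor of receptor signalling, rose (251 against 116, log2 fold change 1.10).

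Extracellular matrix genes rose more often than they fell. Of 34 collagens and matrix glycoproteins tested, 13 rose and 4 fell (6 and 3 without the block). COL3A1, the type III collagen chain, stood at 11827, 5149 and 12339.9 with shGATA2a and 8969.6, 4202 and 9412 with shGATA2b, against 2758, 1013 and 2823 in Control (log2 fold change 2.01, adjusted p = 7.9e-12). Replicate 2 was the lowest of each group, and the lowest knockdown library was above the highest Control library. POSTN, a matricellular protein gene, stood at 1219, 1203 and 462 with shGATA2a and 1382, 1989 and 795 with shGATA2b, against 212, 371 and 131 in Control (log2 fold change 2.29). COL5A2, a type V collagen chain, averaged 14096 ± 4929.5 with knockdown and 6138 ± 3186 in Control, with overlapping groups.

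COL6A3, a type VI collagen chain, and HSPG2, the basement membrane proteoglycan perlecan, fell by 0.86 and 1.20 on the log2 scale. TIMP2, an inhibitor of matrix proteases, fell (2139.8 against 5741, log2 fold change -1.43). Among 15 integrin genes 6 rose and 3 fell (3 and 3 without the block). ITGA2, a collagen receptor subunit, rose (13380.1 against 7471, log2 fold change 0.82), and ITGB3, a vitronectin receptor subunit, fell (94.9 against 234, log2 fold change -1.31). The fibroblast marker list, which includes COL3A1 and COL1A1, moved with this group as given above. Its part in the result was not tested, and the fibroblast genes PDGFRB and FAP were at 0 in all 9 libraries.

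Guidance and adhesion genes known from the nervous system were among the strongest changes. Of 34 neuronal adhesion genes 13 were tested, and of these 8 rose and 2 fell (6 and 0 without the block). LRRN3, at 7.885 in Control replicate 2, met the filter only with knockdown libraries counted. The count of rising genes was therefore partly favoured by the filter. FLRT3, a leucine-rich repeat adhesion protein that also binds the netrin receptor UNC5B, stood at 422, 98.5 and 513 with shGATA2a and 587, 176 and 874 with shGATA2b, against 72.7, 14.9 and 108 in Control (log2 fold change 2.81). The value in shGATA2a replicate 2 lay within the Control range. Of 32 semaphorin, slit, netrin and ephrin genes 9 rose and 11 fell (8 and 5 without the block). The secreted guidance genes on the rising side included SEMA3A, with 778, 1014 and 373 with shGATA2a and 634, 973 and 429 with shGATA2b, against 181, 267 and 115 in Control. SEMA3C averaged 27069.8 ± 5059 with knockdown and 10201 ± 740.2 in Control, NTN4 8849 ± 2027 and 2619 ± 402, and NTN1 583 ± 64.9 and 163 ± 24.1. Their log2 fold changes were 1.39, 1.74 and 1.84. Receptor genes on the falling side included NRP2, a semaphorin co-receptor, and UNC5B, a netrin receptor, which fell by 1.48 and 1.13 on the log2 scale, while NRP1, the related co-receptor, rose by 0.70.

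Antioxidant genes under NRF2 control rose in 16 of 27 cases and fell in 5 (10 and 2 without the block), with a median log2 fold change of 0.32. With shGATA2a alone 12 rose and 6 fell, and with shGATA2b alone 15 rose and 3 fell. Tested directly, 10 were higher with shGATA2b than with shGATA2a and 0 lower (2 and 0 without the block). Among all genes 4.73% were higher and 7.73% lower. SLC7A11, the cystine importer, stood at 670.3, 688 and 995 with shGATA2a and 1311, 1354 and 1868 with shGATA2b, against 263, 315 and 360.2 in Control (log2 fold change 1.79, adjusted p = 7.0e-11). Every shGATA2b value was above every shGATA2a value, and all 6 were above Control. AKR1C3, an aldo-keto reductase of steroid metabolism with near-identical paralogues, averaged 1795 ± 603 with knockdown and 664 ± 312 in Control, with overlapping groups. TXNRD1 and NQO1, 2 oxidoreductases, rose by 0.73 and 0.57 on the log2 scale.

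Unfolded protein response genes rose in 11 of 30 cases and fell in 3 (6 and 1 without the block, 6 and 1 without replicate 1). By hairpin, 9 rose and 6 fell with shGATA2a, and 11 rose and 2 fell with shGATA2b. The median log2 fold changes were 0.03 and 0.21. PDIA4, a disulfide isomerase of the endoplasmic reticulum, stood at 6632, 5819.8 and 6051 with shGATA2a and 7886, 7432 and 7658 with shGATA2b, against 2649, 2876 and 2326 in Control (log2 fold change 1.40). SEL1L, of the degradation complex there, rose as well (3349 against 1390.3, log2 fold change 1.26). Among secretory pathway genes 12 of 36 rose and 5 fell (6 and 3 without the block). MCFD2, which ferries coagulation factors out of the endoplasmic reticulum with LMAN1, rose (4794 against 1404, log2 fold change 1.77), whereas LMAN1 itself fell (2333 against 4565). Of 22 heat shock chaperone genes 4 rose and 8 fell (3 and 4 without the block). The cytosolic chaperone gene HSP90AA1 rose (24717 against 11853, log2 fold change 1.06), and its close paralogue HSP90AB1 fell (12069 against 24253, log2 fold change -1.01).

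Histone cluster genes rose in 12 of 22 cases and fell in 0 (9 and 0 without the block), with a median log2 fold change of 0.73. HIST1H2BK stood at 284, 229 and 268 with shGATA2a and 427, 436 and 381 with shGATA2b, against 135, 84.1 and 89.6 in Control (log2 fold change 1.70). HIST1H2BD averaged 171 ± 31.6 with knockdown and 56.6 ± 3.40 in Control. Histone genes resemble each other closely and the handling of shared reads is unknown, so these values are uncertain. Interferon-stimulated genes rose in 13 of 38 cases and fell in 8 (8 and 2 without the block). Among those that rose, IFI44L met the filter only through knockdown libraries, so its direction was fixed by the filter. By hairpin, 13 rose and 3 fell with shGATA2a, and 12 rose and 10 fell with shGATA2b. Beside IFI44L and GBP1, SAMD9, OAS1 and IFI6 rose by log2 fold changes of 1.68, 0.99 and 1.34, while OASL, an antiviral protein of the oligoadenylate synthetase family, fell (252 against 533, log2 fold change -1.11, a call lost without the block at adjusted p = 0.11), and ISG15, the ubiquitin-like interferon product, fell by 0.48.

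Signalling genes changed in both directions. Of 19 Hippo pathway genes 8 rose and 2 fell (5 and 2 without the block). PTPN14, a phosphatase that restrains YAP, stood at 3968, 3911 and 3968 with shGATA2a and 3650.2, 3896 and 4090.4 with shGATA2b, against 865, 883 and 856 in Control (log2 fold change 2.17, adjusted p = 1.9e-12). The 6 knockdown values spanned 3650.2 to 4090.4 and the 3 Control values 856 to 883. WWTR1, which encodes the YAP-related coactivator TAZ, averaged 7921 ± 2406 with knockdown and 1836 ± 328 in Control. Of 24 receptor tyrosine kinase genes 6 rose and 9 fell (4 and 4 without the block). MET, the receptor of hepatocyte growth factor, stood at 12499.9, 12294 and 14524 with shGATA2a and 8242, 9550 and 8496 with shGATA2b, against 2541, 3699 and 2606 in Control (log2 fold change 1.88, adjusted p = 9.7e-11).

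The TGF-beta receptor pair moved in opposite directions. TGFBR1, the signalling kinase, averaged 449.5 ± 230 with knockdown and 1300.2 ± 21.1 in Control (log2 fold change -1.67), and TGFBR2, the ligand-binding partner, 488 ± 88.5 and 166 ± 23.9 (log2 fold change 1.54). Of 30 TGF-beta and BMP genes 5 rose and 7 fell (1 and 3 without the block), a share near that of all genes. RHOA, the GTPase of stress fibres, fell (3398 against 10094, log2 fold change -1.59), and RHOB, its endosomal relative, rose (6186 against 2416, log2 fold change 1.32).

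Genes tied to drug response were measured too. Of 15 drug efflux pump genes 4 rose and 3 fell (3 and 1 without the block). ABCB1, the multidrug pump P-glycoprotein, stood at 19853, 12168 and 18928 with shGATA2a and 23004, 16056 and 27570.5 with shGATA2b, against 7016, 6476 and 7745 in Control (log2 fold change 1.43, adjusted p = 2.1e-09). All 6 knockdown libraries were above Control. Of 20 tubulin and microtubule genes 6 rose and 5 fell (2 and 1 without the block, 5 and 2 without replicate 1). STMN1, the microtubule destabiliser stathmin, rose (6904 against 2046, log2 fold change 1.73), and so did TUBA1A, an alpha-tubulin gene (1729 against 706, log2 fold change 1.28).

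In the insulin-like growth factor axis 3 of 14 genes rose and 7 fell (2 and 2 without the block, 3 and 3 without replicate 1). Among those that rose, IGF1 met the filter only with knockdown libraries counted. IGF1 stood at 229, 37.8 and 198 with shGATA2a and 42.7, 38.9 and 76.6 with shGATA2b, against 21.1, 5.26 and 16.6 in Control, higher with knockdown in every library but much higher in shGATA2a replicates 1 and 3 than elsewhere. IGF2 was listed at 28.8, 17.0 and 23.3 with shGATA2a and 35.0, 27.6 and 37.2 with shGATA2b, against 189, 173 and 183 in Control. Of its 9 values 8 were not a whole number of reads, so its level is uncertain, and its log2 fold change of -2.69 is given with that limit. IGF1R and INSR, the receptors, had log2 fold changes of -0.34 and -0.41, and both calls were lost without the block (adjusted p = 0.055 and 0.080). The IGF1R call was also lost without Control replicate 1. POM121, a nuclear pore gene with a near-identical copy, was listed at 686, 559.7 and 758 with shGATA2a and 731, 765 and 594 with shGATA2b, against 1333, 1418 and 1393 in Control, and its 3 shGATA2a values were not whole.

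Genes of the ribosome and of mitochondria showed fewer calls in the main fit than the 45.0% of all genes tested. The shares called were 29.6% for cytoplasmic ribosomal proteins, 20.3% for mitochondrial ribosomal proteins and 29.2% for the respiratory chain. In the first and last of these lists only rising genes were fewer, and the falling share was near the 22.6% of all genes. Among ribosomal proteins of the cytoplasm, 5 of 71 rose and 16 fell (1 and 5 without the block, 1 and 5 without replicate 1), and among those of mitochondria 6 of 59 rose and 6 fell (2 and 1 without the block, 4 and 1 without replicate 1). Without replicate 2 those counts were 1 up and 25 down, and 5 up and 15 down. Among 48 nuclear-encoded respiratory chain genes 3 rose and 11 fell (2 and 4 without the block, 4 and 5 without replicate 1). UQCRC2, a core subunit of complex III, was the exception in size and stood at 458, 582 and 692 with shGATA2a and 448, 633 and 555 with shGATA2b, against 2003, 1946 and 1897 in Control (log2 fold change -1.81, adjusted p = 4.6e-10).

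**Figure D3:**
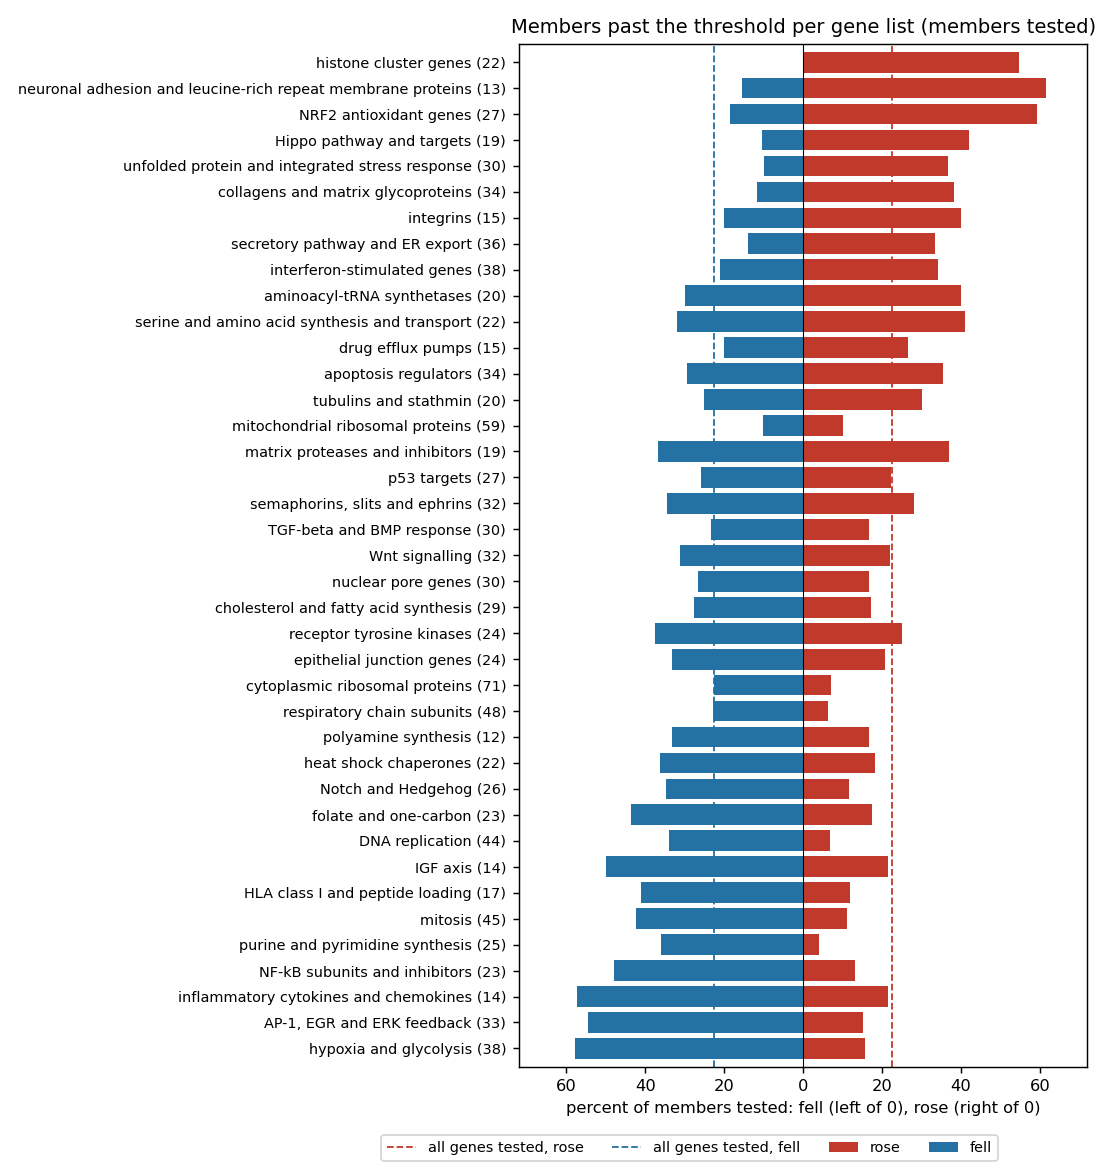
Share of tested members of gene lists (those with at least 10 tested) that rose (red, right) and fell (blue, left) with GATA2 knockdown in ARCaPM-DR, with the number tested in brackets and dashed lines at the shares of all genes tested, 22.4% and 22.6%. Histone genes (12 of 22 rose, 0 fell) stand at the top and hypoxia and glycolysis genes (22 of 38 fell, 6 rose) at the bottom.

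The 2 hairpins were then compared with each other. Between shGATA2b and shGATA2a 1629 genes passed the threshold (12.5%), 618 higher (4.73%) and 1011 lower (7.73%) with shGATA2b, of which 142 differed at least 2-fold (1.09%). Without the block 105 passed, and 1486 had an unadjusted p under 0.05. Without all 3 libraries of replicate 1, 375 passed, and leaving out single libraries gave 648 without shGATA2a replicate 1, 1050 without shGATA2a replicate 3, and 756, 1005 and 615 without shGATA2b replicates 1, 2 and 3. HMOX1, the heme oxygenase induced by oxidative stress, averaged 5483 ± 192 with shGATA2b and 774 ± 178 with shGATA2a (SD, n = 3 each), beside 1145 ± 482 in Control. The log2 difference between hairpins was 2.85 (adjusted p = 7.2e-09, and 0.0023 without the block), and the shGATA2a values of 568, 871 and 882 lay within or under the Control range.

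SRF, the serum response factor, averaged 1355 ± 124 with shGATA2b and 488 ± 48.9 with shGATA2a, beside 1209 ± 23.9 in Control, so that the shGATA2a values lay below the other groups. NOG, a BMP antagonist, averaged 508 ± 57.6 with shGATA2b and 142 ± 43.8 with shGATA2a, and its Control mean of 262 ± 53.4 lay between them. PLOD3, a collagen lysyl hydroxylase, DNAL4, a dynein light chain, and ZFPM1, the FOG1 cofactor of GATA factors, were also higher with shGATA2b, by log2 differences of 1.84, 1.60 and 2.55. The ZFPM1 call was lost without the block (adjusted p = 0.20), and its values with shGATA2a were 36.5, 68.7 and 3.89.

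Among genes lower with shGATA2b, GZMB, a granule protease known from cytotoxic lymphocytes, averaged 65.1 ± 22.6 with shGATA2b and 408 ± 173 with shGATA2a, beside 85.7 ± 34.1 in Control. The Control values of GZMB overlapped those of shGATA2b. SERPINA6, the corticosteroid-binding globulin, averaged 29.3 ± 0.653 with shGATA2b and 174 ± 23.0 with shGATA2a, beside 38.3 ± 9.29 in Control. For GZMB and SERPINA6 the shGATA2a libraries were the high ones. STT3B, a catalytic subunit of the oligosaccharyltransferase, and ACER2, a Golgi ceramidase, averaged 506 ± 18.7 and 23.4 ± 4.47 with shGATA2b, 1922 ± 496 and 84.2 ± 10.2 with shGATA2a, and 1698 ± 168 and 119 ± 18.8 in Control, so that here the shGATA2b libraries were the low ones. GPR137C and KRTAP3-1 completed the rule's 12 genes, with log2 differences of -1.82 and -2.08, the second lost without the block (adjusted p = 0.33).

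**Figure D4:**
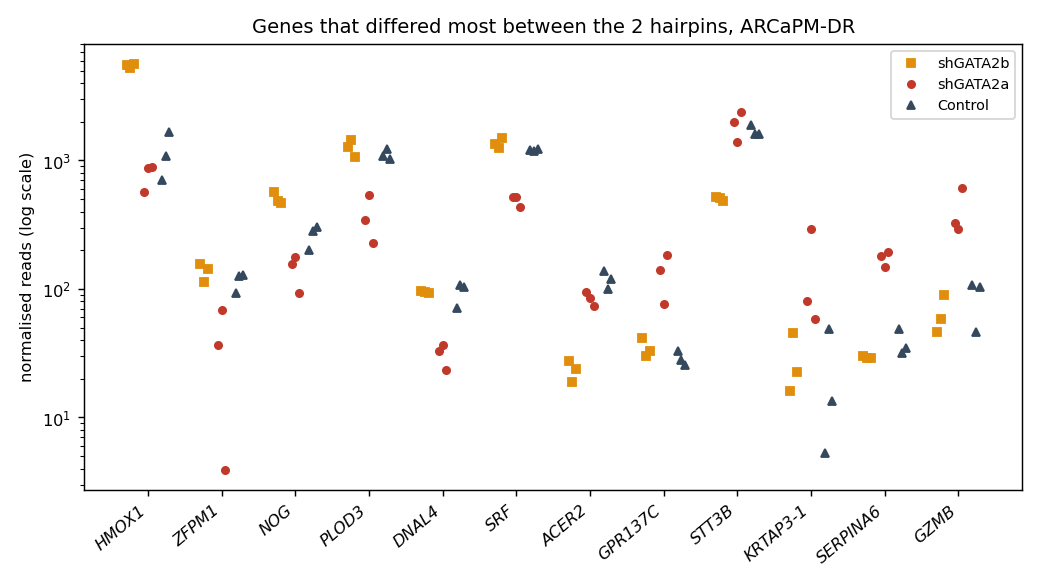
Normalised reads (log axis) of the 12 genes named for the difference between hairpins, in each library with shGATA2b (squares), shGATA2a (circles) and Control (triangles). Genes were named here only if the 3 libraries of 1 hairpin lay wholly above or below those of the other, so that separation is no separate finding. HMOX1 sits between 5262 and 5609.6 with shGATA2b and between 568 and 882 with shGATA2a.

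The effect in ARCaPM-DR was set against that in the other lines in 1 fit of all 27 libraries, as the knockdown effect in ARCaPM-DR minus the mean of the effects in DU145-DR and 22Rv1-DR. Of 15295 genes 2945 differed (19.3%), 1621 with a more positive effect in ARCaPM-DR (10.6%) and 1324 with a more negative one (8.66%). Without the block 1015 differed, and 1905 did without replicate 1. CALCRL rose in ARCaPM-DR by 4.52 (SE 0.41) on the log2 scale, beside effects of -1.48 in DU145-DR and 1.65 in 22Rv1-DR. In those lines its highest mean was 7.84. HK2 fell by 1.86 in ARCaPM-DR (SE 0.09), beside 0.70 in DU145-DR and -0.31 in 22Rv1-DR. The 22Rv1-DR level of HK2 was much higher throughout, with means of 13069.8 with knockdown and 16847 in Control.

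NCEH1 had effects of -2.19 in ARCaPM-DR, 0.48 in DU145-DR and -0.77 in 22Rv1-DR. The difference also passed for the matrix genes COL3A1 and POSTN, the guidance gene SEMA3A and the Hippo pathway gene PTPN14, by 2.36 for COL3A1, 2.44 for POSTN, 1.71 for SEMA3A and 1.64 for PTPN14 (adjusted p = 0.0010, 0.0015, 0.012 and 1.9e-07), and that of SEMA3A was lost without the block. In DU145-DR and 22Rv1-DR the highest mean was 36.4 for COL3A1 and 3.18 for POSTN, so the response of POSTN there was poorly measured. SLC2A3 did not pass the test of the difference between lines (difference 1.37, adjusted p = 0.068). GATA2 itself had a difference of -0.78 (adjusted p = 0.0087, and 0.073 without the block), and in the other lines some of its values were not whole reads.

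**Figure D5:**
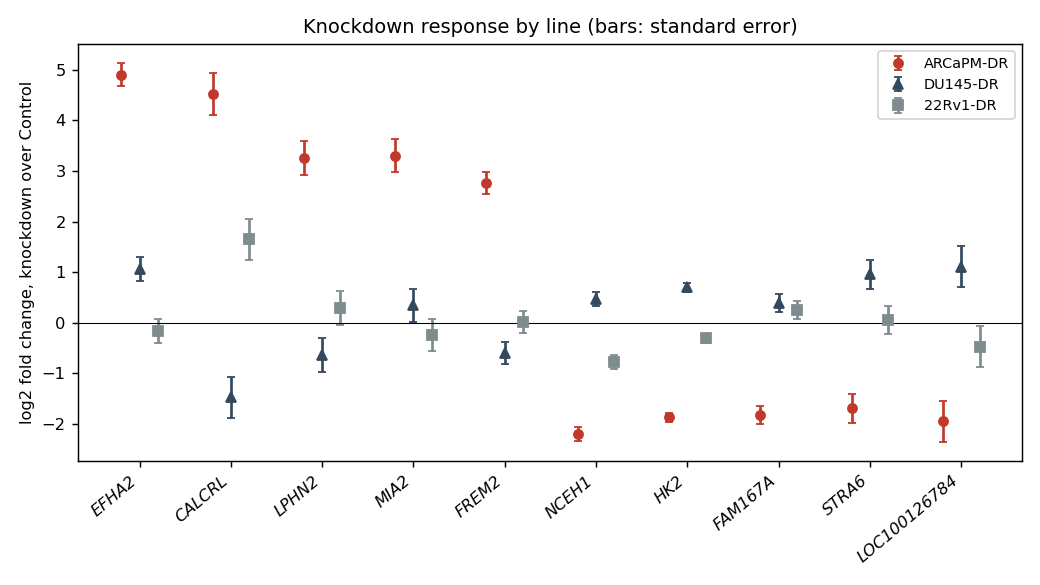
Log2 fold change, knockdown over Control, in ARCaPM-DR (circles), DU145-DR (triangles) and 22Rv1-DR (squares) for the 10 genes with the largest difference between lines, with the standard error of the 27-library fit as bars. CALCRL stands at 4.52 in ARCaPM-DR, and NCEH1, HK2, FAM167A, STRA6 and LOC100126784 lie below 0 in ARCaPM-DR.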

How the data were processed

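RNA sequencing values for 27 libraries came as 1 table. The submitters' processing notes name TopHat2 2.0.9, Cufflinks 1.3.0 and the hg19 (GRCh37) build. Not given in the sources used here are the counting program, the scaling tool and the use of strand, so overlapping and antisense genes cannot be told apart. The values the authors deposited are a signal: within each library nearly all are whole multiples of 1 step, as read counts divided by 1 size factor are. Dividing by the step gave whole reads (within 0.005 reads) for 99.988% of 137195 values above 0 in ARCaPM-DR. The other 16 values were in IGF2, POM121, FOXM1, POM121C, SESN3 and UNC5A. Counting intervals cover counting error only.

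limma 3.58.1 (R 4.3.3) was fitted on log2(value + 1) with the trend option and the replicate number as a block, as the definition of the comparison asks, on genes with at least 10 normalised reads in at least 3 of 9 libraries. edgeR 4.0.16 and DESeq2 1.42.0 on recovered reads were alternatives. The fit was tested on simulated data. Chi-square per degree of freedom between replicates was 6.1 to 45.5, so none were merged.

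Genes named in the text were fixed genes such as GATA2 and IGF2, the 15 that rose and 15 that fell most with a mean of at least 50, no overlap and whole reads, up to 4 per list in order of adjusted p, 12 for the difference between hairpins and 10 for that between lines. The 12 also needed a mean of at least 50 and no overlap between the hairpins. COL6A3, HSPG2, NRP2, UNC5B, NRP1, SLC2A1, PFKL, GPI, ALDOA, TXNRD1, NQO1, OAS1, IFI6 and ISG15, and the markers of cell types, were named outside that rule, after their values were seen. The comparison, the members and the lists were chosen with earlier results of these data known. Not every gene and list is reported here.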

Additional observations from a re-analysis of the deposited data

Results flagged for a closer look

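For 10 genes the knockdown effect in ARCaPM-DR differed most from the mean effect in DU145-DR and 22Rv1-DR, by a limma test of that difference. More positive in ARCaPM-DR were EFHA2 (difference 4.45 on the log2 scale, adjusted p = 2.3e-08), CALCRL (4.43, 7.7e-06), LPHN2 (3.42, 1.3e-05), MIA2 (3.25, 1.6e-05) and FREM2 (3.05, 5.7e-07). LPHN2 and FREM2 had 1 read each over the 3 Control libraries of ARCaPM-DR. Their pooled ratios of knockdown over Control were 41.4 (exact 95% counting interval 7.12 to 1660) and 25.1 (4.21 to 1020).

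More negative in ARCaPM-DR were LOC100126784 (-2.26, 0.0033), STRA6, a retinol transporter gene (-2.20, 2.0e-04), FAM167A (-2.14, 1.9e-06), HK2 (-2.06, 2.6e-09) and NCEH1 (-2.05, 3.3e-07). LOC100126784 averaged 3.58 with knockdown and 1.37 in Control in DU145-DR, and was under 1 in 22Rv1-DR. STRA6 was under 10 in both of these lines, beside 84.7 against 269.5 in ARCaPM-DR. All 10 differences passed without the block.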

How the results depend on the processing

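The replicate block was the setting with the largest effect. Same-numbered ARCaPM-DR libraries deviated together unevenly: 9 pairs had a median correlation of 0.58 but a lowest of 0.06, against a median of -0.26 for other numbers, and 7 of 9 libraries correlated best with one of their own number. The data alone therefore do not show that the numbers pair the libraries. Without the replicate block 2418 genes passed for the knockdown (5885 with it), 1679 for shGATA2a, 1895 for shGATA2b, 105 between hairpins and 1015 for the difference between lines. edgeR on recovered reads without the block, chosen after seeing the data, gave 2482, 1670, 2047 and 103 for the first 4. Of 217 results on named genes 41 were no longer called without the block. None could reverse, since each hairpin has 1 library per replicate number and the fold changes are the same with and without the block. Leaving out a library or a replicate number gave 3788 to 6350 genes for the knockdown, 2889 to 5588 for shGATA2a, 3336 to 5811 for shGATA2b, 375 to 2186 between hairpins and 1905 to 3102 for the difference between lines. The low ends are without replicate 1. Leaving out shGATA2a replicate 1 gave 3469 for shGATA2a and 648 between hairpins, and leaving out shGATA2b replicate 1, 2 or 3 or shGATA2a replicate 3 gave 756, 1005, 615 or 1050 between hairpins. A fit without a trend gave 696 between hairpins. Other settings (pseudocount 0.1, filter of 50 or none, quantile or median of ratios scaling, genes with values not whole left out) kept these counts within 1.5 times, as did edgeR, DESeq2 and 1 fit of all 27 libraries for all but the difference between lines, where they were not run. With the fit without a trend, they gave 5141 to 6154 genes for the knockdown. GATA2 ranged from -2.73 to -2.45 when each library was left out in turn, and was -2.61 with a pseudocount of 0.1. At a pseudocount of 0.1 the differences between lines of MIA2 and LOC100126784 were no longer called. In these comparisons the cause was not tested. The 3435702 reads of shGATA2a replicate 3 limit genes of a few reads.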
